A study of Sus scrofa with 28 samples.

Results

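The genes described here encode the subunits, activators and assembly factors of the proteasome in the pig heart after myocardial infarction. They were chosen by name: every gene of the count tables whose symbol is PSMA, PSMB, PSMC, PSMD, PSME, PSMF or PSMG followed by a number, which gave 40 genes of 17603. The study took heart tissue of 14 wild-type Landrace pigs (Sus scrofa), 3 months old and of both sexes, in which a balloon had closed the LAD, a main coronary artery of the left ventricle, before flow was restored. After reperfusion the animals received saline (the control, labelled PBS) or recombinant human Agrin (rhAgrin), an extracellular matrix protein, into the coronary artery. An infarct zone sample and a remote zone sample came from each animal, at day 3 (3 saline and 4 rhAgrin animals) or day 28 (3 saline and 4 rhAgrin animals), and each of the 28 samples gave 1 polyA RNA library. Every animal was injured, so the remote zone of the same heart was the only reference, and no uninjured heart enters any comparison.

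The proteasome degrades proteins that carry ubiquitin chains. Its 20S core is a barrel of alpha rings, which gate the entry, and beta rings, which hold the proteolytic sites. The 19S cap binds the core, and its ATPases unfold and feed in the substrate while its non-ATPase subunits recognise and remove ubiquitin. In cells stimulated by interferon gamma and in many leukocytes, PSMB8, PSMB9 and PSMB10 take the place of the standard catalytic subunits PSMB5, PSMB6 and PSMB7, which makes the immunoproteasome, and PSME1 and PSME2 form an activator ring that can replace the cap. The immunoproteasome is known for making peptides for class I antigen presentation. In cardiac muscle the standard proteasome turns over sarcomeric and damaged proteins.

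By role, the 40 genes were 6 alpha ring subunits, 4 structural beta subunits, PSMB7 as the standard catalytic subunit with a named row, the 5 immunoproteasome genes, 6 ATPases and 11 non-ATPase subunits of the cap, the cap assembly chaperones PSMD5 and PSMD10, the other activators PSME3 and PSME4 with the inhibitor PSMF1, and the core assembly chaperones PSMG3 and PSMG4. The standard core is used below for the 11 alpha, structural beta and PSMB7 genes. PSMB5 and PSMB6 are not analysed here, because no row carried those symbols. All 40 genes passed the filter on low counts and were tested in every comparison. The gene bodies of 9 of the 40 overlap another gene in the RefSeq annotation, 8 of them only on the opposite strand (among them PSMC5, by 685 bases with FTSJ3, and PSME1, by 88 bases with EMC9), and PSMD14 overlaps a pseudogene on its own strand. Whether the counting used strand is not given in the sources used here, so reads from these overlaps cannot be assigned with certainty.

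The promoters of the 5 immunoproteasome genes are printed because 4 of these genes, PSMB8, PSMB9, PSMB10 and PSME2, rose in the day 3 infarct zone. Of all genes tested, 34.6% rose there with saline and 37.6% with rhAgrin. The PSME2 calls were lost without single animals, and PSME1 fell with rhAgrin. Each promoter runs from 250 bases before to 50 bases after the RefSeq start (build Sscrofa11.1), 5′ to 3′ on the strand of its gene. Capitals mark matches to the interferon-stimulated response element (GAAANNGAAA) in PSMB9, PSMB10, PSME1 and PSME2, and to the gamma-activated site (TTCNNNGAA) in PSMB8, on either strand.
PSMB8 promoter (chr7:25061617-25061916, - strand): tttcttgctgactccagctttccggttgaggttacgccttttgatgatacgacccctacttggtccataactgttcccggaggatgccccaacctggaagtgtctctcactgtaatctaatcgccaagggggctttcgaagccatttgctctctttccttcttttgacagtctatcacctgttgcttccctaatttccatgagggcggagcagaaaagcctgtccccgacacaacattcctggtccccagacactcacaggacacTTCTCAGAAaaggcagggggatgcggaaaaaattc
PSMB9 promoter (chr7:25071883-25072182, + strand): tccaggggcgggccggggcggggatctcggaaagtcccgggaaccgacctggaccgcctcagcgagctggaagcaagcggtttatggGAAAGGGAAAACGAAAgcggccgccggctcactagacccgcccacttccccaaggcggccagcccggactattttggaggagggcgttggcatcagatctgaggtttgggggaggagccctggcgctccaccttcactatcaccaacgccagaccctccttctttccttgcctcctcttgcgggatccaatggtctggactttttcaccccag
PSMB10 promoter (chr6:28547560-28547859, - strand): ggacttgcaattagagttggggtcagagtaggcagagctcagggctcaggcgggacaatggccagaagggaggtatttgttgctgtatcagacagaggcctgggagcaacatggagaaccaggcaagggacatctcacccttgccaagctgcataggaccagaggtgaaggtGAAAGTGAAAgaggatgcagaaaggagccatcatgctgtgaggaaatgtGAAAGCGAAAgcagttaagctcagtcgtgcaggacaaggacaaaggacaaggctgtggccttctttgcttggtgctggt
PSME1 promoter (chr7:75164482-75164781, - strand): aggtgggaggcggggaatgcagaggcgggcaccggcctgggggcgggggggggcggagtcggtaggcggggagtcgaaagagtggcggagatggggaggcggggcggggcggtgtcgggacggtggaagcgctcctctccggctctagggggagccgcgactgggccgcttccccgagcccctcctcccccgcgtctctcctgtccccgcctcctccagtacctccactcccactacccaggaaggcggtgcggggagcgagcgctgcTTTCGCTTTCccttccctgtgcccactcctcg
PSME2 promoter (chr7:75154320-75154619, + strand): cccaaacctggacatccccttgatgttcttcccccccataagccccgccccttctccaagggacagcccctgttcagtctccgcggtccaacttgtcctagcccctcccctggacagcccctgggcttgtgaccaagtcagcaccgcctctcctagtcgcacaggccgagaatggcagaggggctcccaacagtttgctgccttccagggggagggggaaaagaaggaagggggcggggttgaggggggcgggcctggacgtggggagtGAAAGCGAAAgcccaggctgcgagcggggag
PSMB8 and PSMB9 lie near each other on chromosome 7 (gene bodies 25058456-25061666 and 25072133-25077508), in the major histocompatibility complex. PSME1 and PSME2 are also neighbours on chromosome 7, at 75161830-75164531 and 75154570-75157871, and PSMB10 is on chromosome 6. The response element was matched in 5 of the 40 promoters, which were the 4 above and that of the ATPase gene PSMC4, and in 3.58% of all 19534 promoters of that length. PSMB9 held 2 overlapping matches and PSMB10 held 2 separate ones. The gamma-activated site was matched in 5 of the 40 promoters and in 7.11% of all promoters. The antioxidant response element (TGACNNNGC), which NFE2L1 can bind in proteasome promoters, was matched in 4 of the 40 and in 12.4% of all. A match describes the letters of the window and is not evidence of binding.

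Total counts lay between 15383495 and 34767278 a library. Mitochondrial genes held 29.1% to 34.1% of the counts of the remote zone at day 3 and 5.78% to 10.6% of those of the infarct zone. The summed level of the 9 cardiomyocyte markers found, none of which was at 0 in any library, was 70730 to 93610 CPM in the day 3 remote zone and 2624 to 17960 in the day 3 infarct zone. The 12 macrophage and monocyte markers, also none at 0, summed to 138.6 to 519.7 CPM in the remote and 1683 to 2869 in the infarct zone at day 3. These shifts moved with the zone in every day 3 comparison below, and their part in the results was not tested. In bulk tissue, fewer cells of a type and less RNA per cell cannot be told apart. Animal 573 (saline, day 3) had 733 counts on the Y-linked genes KDM5D, ZFY and EIF1AY in its infarct library and 0 in its remote library, which goes against a shared origin, whereas both zones had the same state in the other 13 animals. The infarct column of animal 577 (rhAgrin, day 3) carried a suffix, 577B. The day 3 changes of the immunoproteasome are therefore given also without animals 573 and 577, and for the other members named it is stated where a call ended without either.

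In the remote zone the levels of the family spread widely, and the standard subunit PSMB7 stood above its immunoproteasome counterpart. Levels between genes were compared as CPM, scaled by the trimmed mean of M-values (TMM), per kilobase of RefSeq exon. The highest was PSMA7, an alpha ring subunit, at 193.5 ± 16.6 (SD, n = 14 libraries) and a range of 163.8 to 224.2, above every library of every other member. The structural beta subunits PSMB4 and PSMB1 followed at 105.0 ± 10.4 and 92.8 ± 9.45, and their ranges overlapped. PSMB7 had 57.3 ± 5.61, and its immunoproteasome counterpart PSMB10 had 21.1 ± 4.17, with no overlap. Per kilobase some standard subunits had a lower mean than PSMB10, such as PSMA3 of the alpha ring at 18.9 and PSMD6 of the cap at 10.9. The ranges of PSMA3 and PSMB10 overlapped. This order rests on the exon lengths, which are approximate because reads were counted on Ensembl gene models. In CPM without the length, PSMA3 and PSMD6 stood above PSMB10 in every remote group. PSMB8 had 17.2 ± 6.42 with a range of 11.6 to 34.3, and PSMB9 had 6.69 ± 2.64. The lowest member was PSMD10, a cap assembly chaperone, at 4.77 ± 0.72, whose range overlapped that of PSMB9. The ranges of PSMB8 and PSMB9 were wide for their mean, since 2 remote libraries of day 28 saline animals stood above the rest.

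**Figure D1:**
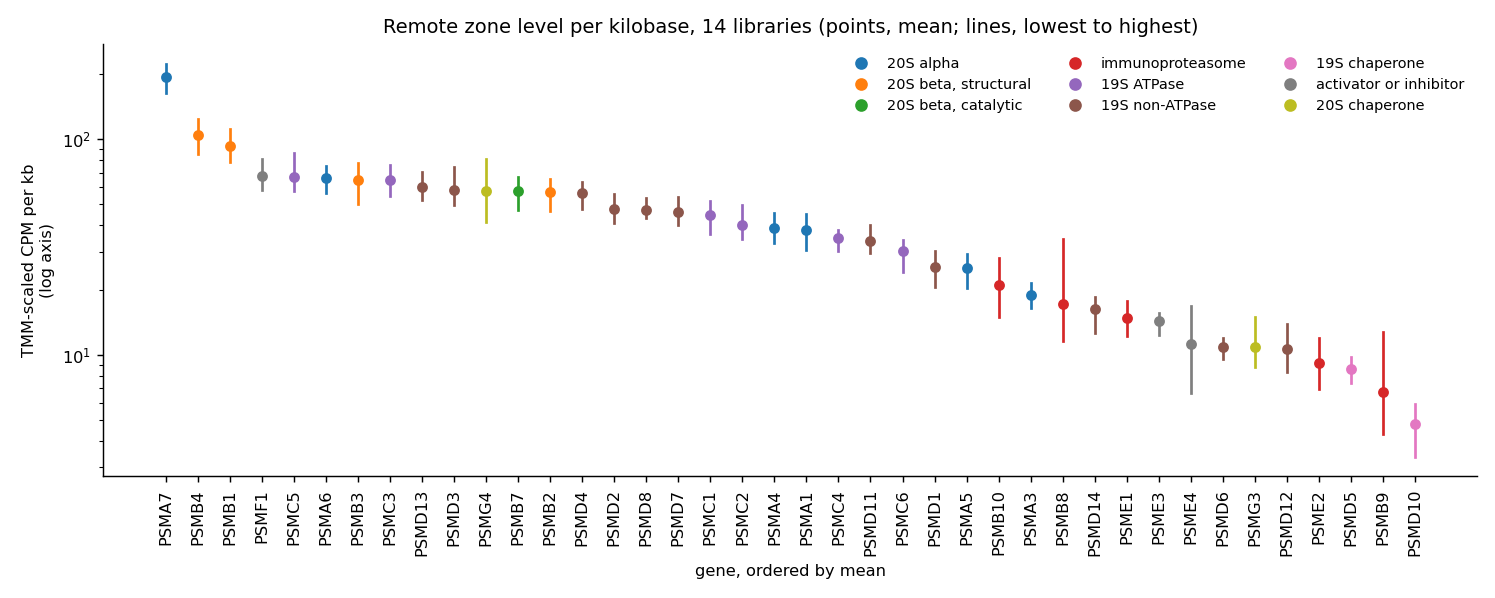
Level of each of the 40 genes in the 14 remote zone libraries, as TMM-scaled CPM per kilobase of RefSeq exon on a log axis, ordered by the mean (points) with the lowest to the highest library (lines) and coloured by role. PSMA7 is highest at 193.5 and PSMD10 lowest at 4.77, and PSMB8 spreads from 11.6 to 34.3.

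At day 3 the immunoproteasome catalytic subunits PSMB8 and PSMB9 were about doubled in the infarct zone, under saline and under rhAgrin. PSMB10 rose by less in both, and the standard catalytic subunit PSMB7 did not pass the test. Levels here and below are TMM-scaled CPM. PSMB8, which replaces PSMB5, was at 16.99, 15.8 and 16.42 in the remote zone of saline animals 571, 573 and 575, and at 41.26, 28.57 and 38.86 in their infarct zone. In the rhAgrin animals 570, 572, 576 and 577 it was at 15.58, 14.05, 20.22 and 20.69 in the remote and 43.53, 27.76, 36.49 and 46.92 in the infarct zone. Every infarct library stood above every remote library at day 3, with animals 572 and 573 the lowest of the infarct zone. PSMB8 rose 2.19-fold with saline (log2 fold change 1.13 ± 0.17 SE, adjusted p = 5.42e-05) and 2.18-fold with rhAgrin (1.12 ± 0.15, adjusted p = 1.14e-05; edgeR quasi-likelihood test, Benjamini-Hochberg adjustment over 15409 genes, as in all tests below).

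PSMB9, which replaces PSMB6, had 5.889, 4.669 and 7.941 in the saline remote zone and 13.25, 8.468 and 14.98 in the infarct zone. In the rhAgrin animals it had 5.371, 4.752, 7.216 and 6.729 in the remote and 15.76, 8.596, 10.86 and 15.55 in the infarct zone. The zones did not overlap in either treatment, and animals 573 and 572 again gave the lowest infarct values. PSMB9 rose 1.98-fold with saline (log2 0.98 ± 0.22, adjusted p = 0.0012) and 2.08-fold with rhAgrin (1.05 ± 0.19, adjusted p = 0.00018). PSMB10, which replaces PSMB7, had 20.72, 23.89 and 20.12 in the saline remote zone against 36.33, 30.18 and 43.48 in the infarct zone, and rose 1.69-fold (0.76 ± 0.17, adjusted p = 0.00152). With rhAgrin it had 18.14, 16.41, 22.74 and 24.38 against 42.76, 30.79, 28.92 and 34.64, and rose 1.68-fold (0.75 ± 0.15, adjusted p = 0.000482). Without animal 573 the log2 fold changes with saline were 1.26 for PSMB8, 1.04 for PSMB9 and 0.96 for PSMB10. Without animal 577 those with rhAgrin were 1.11, 1.00 and 0.83. All of these stayed past the threshold.

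PSME1 and PSME2, whose products share a ring, had changes of opposite sign. PSME2 rose with saline, from 8.041, 7.159 and 7.45 to 9.68, 10.99 and 10.76 (log2 0.47 ± 0.15, adjusted p = 0.0122), and with rhAgrin (0.34 ± 0.13, adjusted p = 0.0295), where the infarct library of animal 572, at 7.233, lay within the remote range of 6.222 to 9.126. PSME2 lost its call without animal 573 with saline (0.40, adjusted p = 0.0728) and without animal 577 with rhAgrin (0.34, adjusted p = 0.0665), and also without 575 with saline (0.44) and without 570 or 576 with rhAgrin (0.23 and 0.30). PSME1 was lower. With rhAgrin it had 15.8, 15.2, 14.55 and 15.49 in the remote and 13.06, 10.3, 11.19 and 11.82 in the infarct zone, with no overlap, and fell (log2 −0.40 ± 0.10, adjusted p = 0.00285). With saline it was −0.27 ± 0.12 (adjusted p = 0.0613). Scaling by library size alone turned the PSME1 difference with rhAgrin to 0.30 (adjusted p = 0.0178).

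PSMB7 had 55.15, 60.54 and 48.67 in the saline remote zone and 46.94, 56.5 and 59.64 in the infarct zone, which overlap (log2 −0.01 ± 0.12, adjusted p = 0.934). In the rhAgrin animals it had 63.02, 64.27, 52.74 and 59.32 against 53.39, 47.33, 51.16 and 52.68 (−0.22 ± 0.11, adjusted p = 0.0762). The level plots of these genes show the pairs of each animal side by side.

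**Figure D2:**
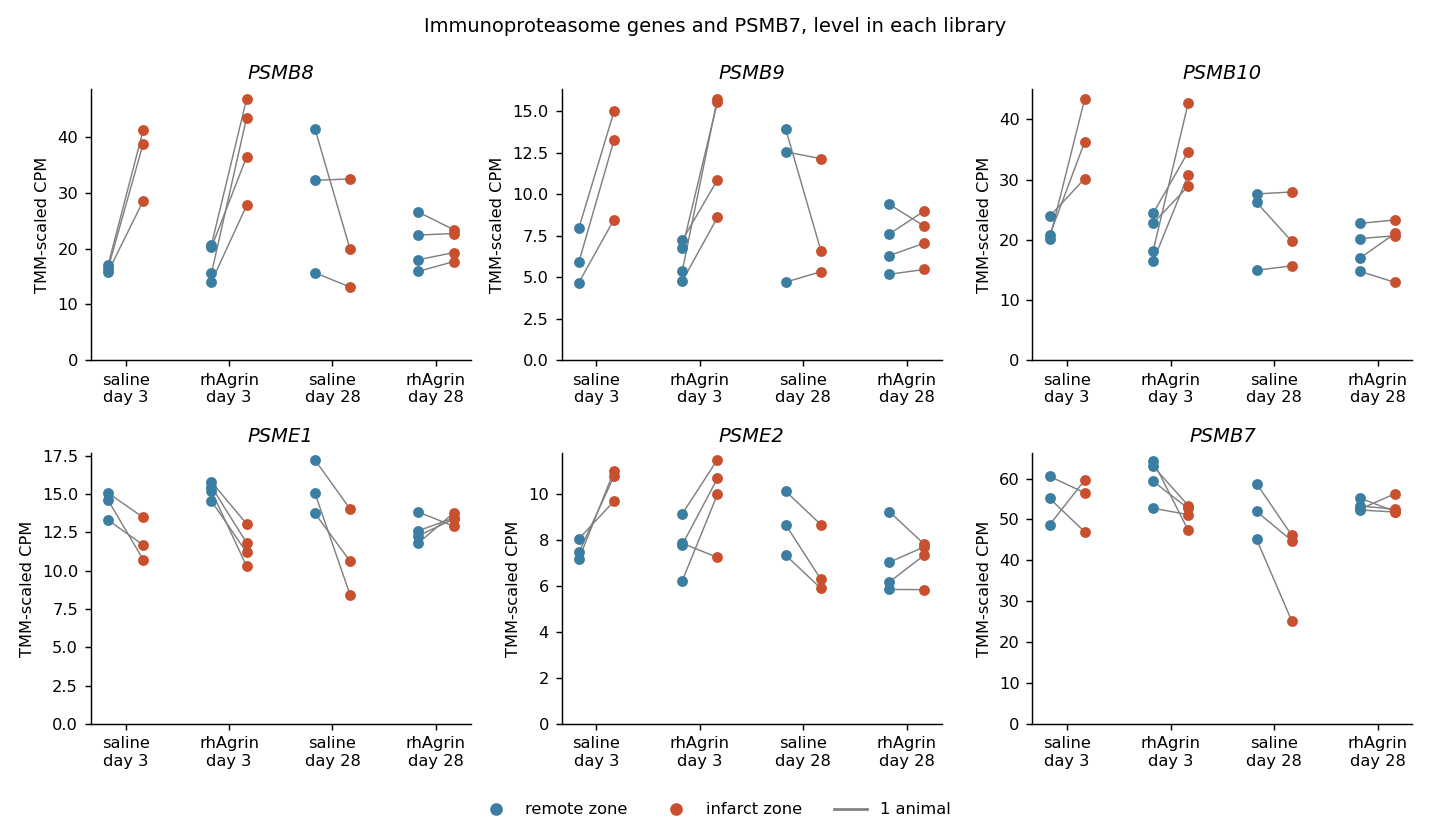
Level (TMM-scaled CPM) of the 5 immunoproteasome genes and PSMB7 in each library, remote (blue) and infarct (orange) zone, with the 2 zones of 1 animal joined by a line. At day 3 all 7 pairs rise for PSMB8, PSMB9 and PSMB10, with animal 573 paired by its label alone, whereas PSMB7 overlaps between zones with saline. At day 28, 2 of the 3 saline animals have remote PSMB8 levels of 41.56 and 32.27.

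Because ratios within a library do not depend on scaling, the shares of counts were compared as well. PSMB8, PSMB9 and PSMB10 together took 1.68% to 1.97% of the counts on the 40 genes in the remote zone and 2.48% to 3.74% in the infarct zone of the day 3 saline animals. With rhAgrin they took 1.27% to 2.05% and 2.82% to 3.73%, so the zones did not overlap in either group. The ratio of PSMB10 to PSMB7 counts was 0.376 to 0.413 in the remote and 0.534 to 0.774 in the infarct zone with saline, and 0.255 to 0.431 and 0.565 to 0.801 with rhAgrin. PSME3, a mostly nuclear activator of the core, had 2.86 to 3.97 times the counts of PSME1 in the saline remote zone and 6.19 to 7.01 times in the infarct zone, and with rhAgrin 3.00 to 3.50 and 5.56 to 7.33 times. At day 28 both ratios were also higher in the infarct library of each saline animal, although the zones overlapped. For PSMB10 to PSMB7 these saline ranges were 0.254 to 0.580 (remote) and 0.340 to 0.784 (infarct). With rhAgrin the day 28 pairs went both ways. The division between cap and core barely moved: the 17 cap genes held 53.5% to 56.0% and the standard core 28.7% to 33.3% of the counts on the 40 genes over all 28 libraries.

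**Figure D3:**
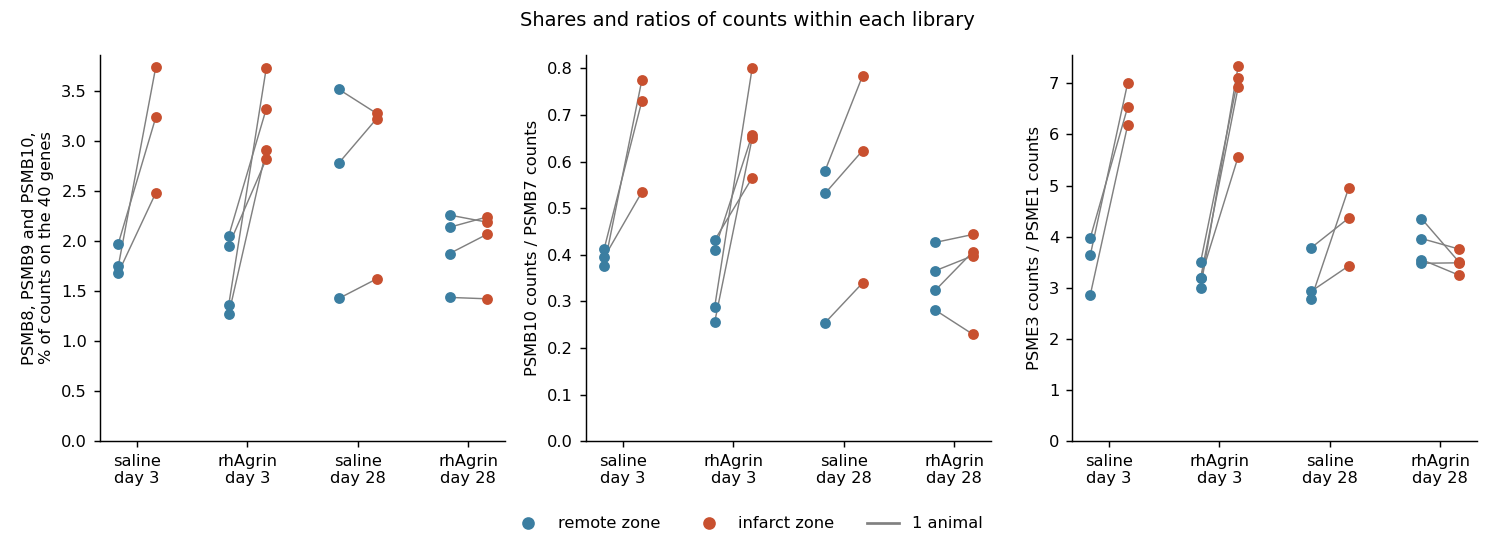
Shares and ratios of raw counts within each library, by treatment and day, remote (blue) and infarct (orange) zone joined by animal: the 3 immunoproteasome catalytic genes as a percent of the counts on all 40 genes, PSMB10 over PSMB7 counts, and PSME3 over PSME1 counts. At day 3 the infarct values start at 2.48%, 0.534 and 5.56, above every remote value of that day.

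Across the whole family the day 3 changes were small and went both ways. With saline 18 members rose and 5 fell, 23 of 40 in all, where 66.8% of all genes tested passed, 34.6% higher and 32.2% lower. With rhAgrin 15 rose and 9 fell, where 70.7% of all genes passed, 37.6% higher and 33.1% lower. A share of members near or below that of all genes is not a result about the family. The median log2 fold change of the members was 0.27 with saline and 0.05 with rhAgrin, beside 0.04 and 0.06 over all genes. The thresholds of the study (a log2 fold change of at least 1 either way and a highest count above 30) were reached by 2 members with saline, PSMB8 and PSME4, and by 3 with rhAgrin, PSMB8, PSMB9 and PSMF1, where 36.5% of all genes reached them in each case. The infarct range lay wholly above the remote range for 19 members and below it for 4 with saline (33.9% and 30.9% of genes), and for 7 and 7 with rhAgrin (31.6% and 27.4%). The count with saline was 17 without animal 573 (14 higher, 3 lower) and 15 without animal 575 (10 and 5, with a median of 0.12), and that with rhAgrin was 17 without animal 577 (8 and 9).

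The split between higher and lower calls depended on the scaling. With library size alone, 36 members were higher and 2 lower with saline and 36 and 1 with rhAgrin, while the median of all genes moved to 0.69 and 0.76. The 40 genes took 0.201% to 0.235% of all counts in the day 3 remote zone and 0.298% to 0.415% in the infarct zone. Of the counts outside mitochondrial genes they took 0.289% to 0.316% and 0.370% to 0.437% with saline, without overlap, and 0.314% to 0.335% and 0.334% to 0.446% with rhAgrin, which overlap.

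**Figure D4:**
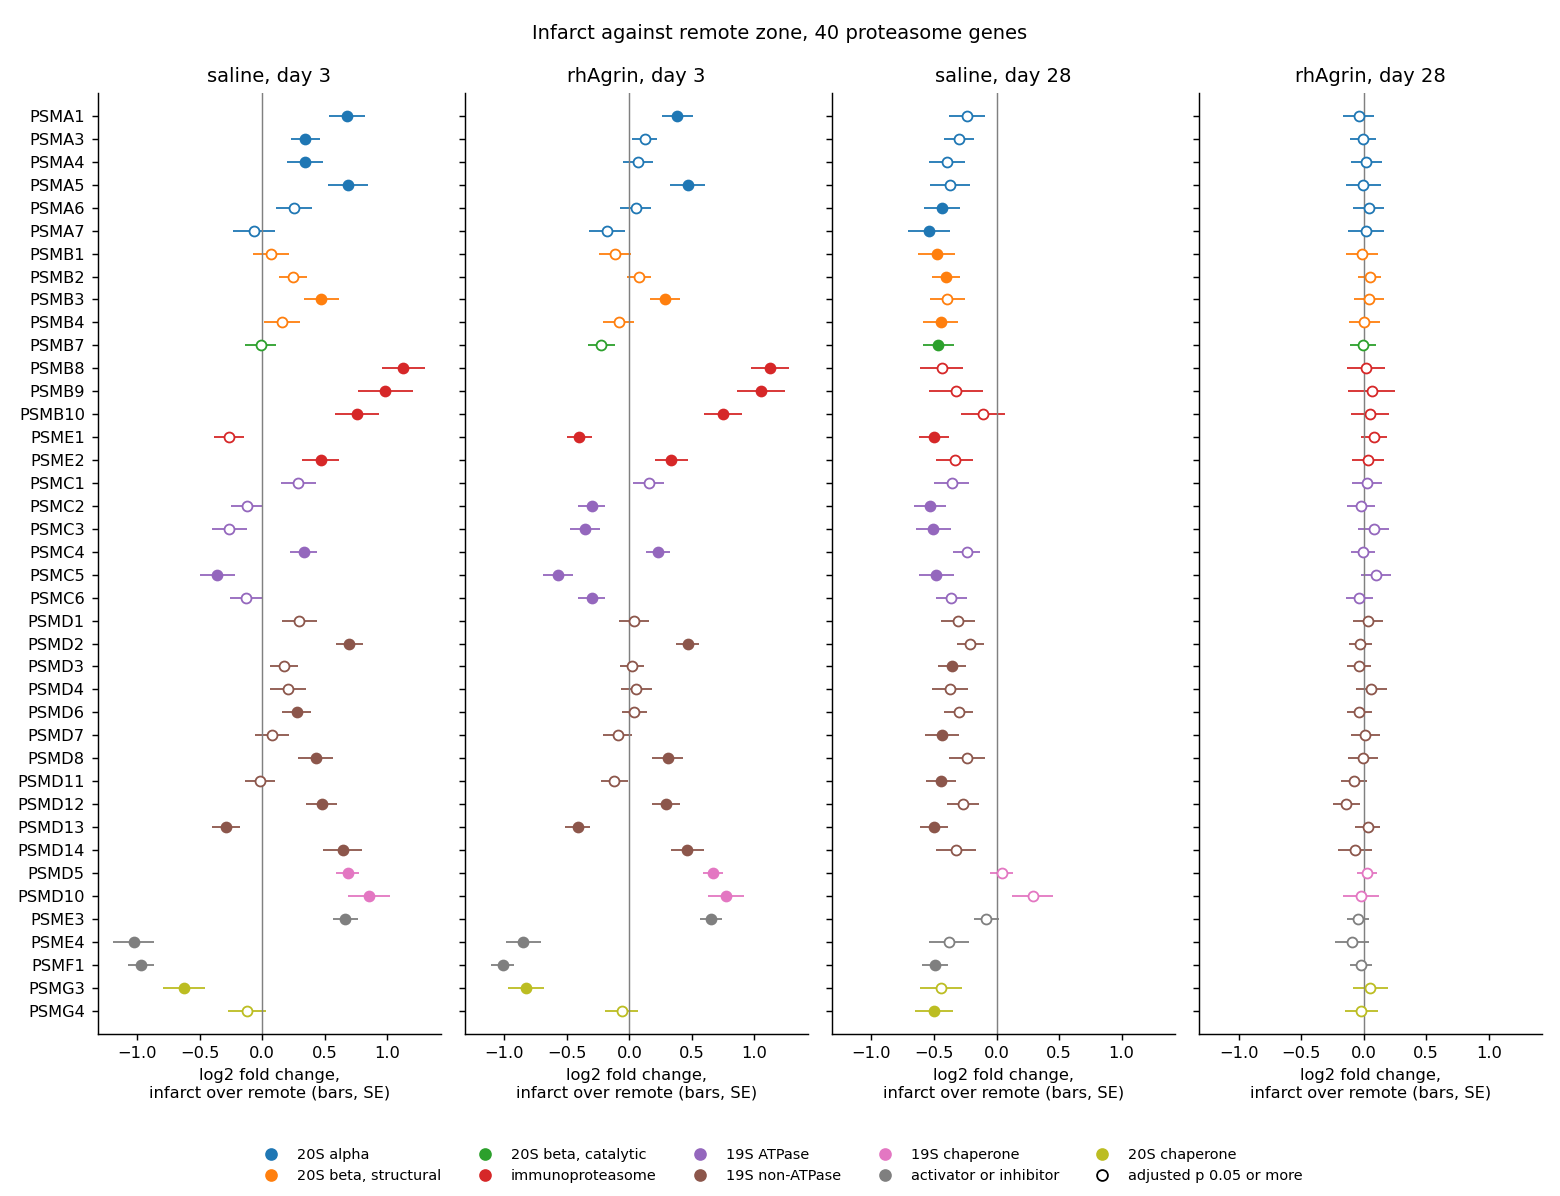
Log2 fold change of infarct over remote zone (points, with bars of 1 SE) for each of the 40 genes in the 4 groups of animals, coloured by role. Filled points have an adjusted p under 0.05: 23, 24, 16 and 0 genes from left to right.

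Of the standard core, 5 of 11 genes rose and 0 fell with saline (median 0.25), and 3 rose and 0 fell with rhAgrin (median 0.07). Over all genes 34.6% rose and 32.2% fell with saline, and 37.6% rose and 33.1% fell with rhAgrin. PSMA5, an alpha ring subunit, had 29.11, 25.06 and 24.22 in the saline remote zone and 36.92, 38.08 and 52.23 in the infarct zone, and rose with saline (log2 0.69 ± 0.16, adjusted p = 0.00182) and with rhAgrin (0.47 ± 0.14, adjusted p = 0.00802). PSMA1, a subunit of the same ring, had 44.39, 44.59 and 41.49 against 67.85, 62.1 and 79.77 with saline, and rose in both (0.68 ± 0.14, adjusted p = 0.000803, and 0.38 ± 0.12, adjusted p = 0.0129). In both genes the saline zones were apart, with the highest infarct level in animal 575. PSMB3, a structural beta subunit, rose by 0.47 ± 0.14 with saline (adjusted p = 0.00868) and 0.28 ± 0.12 with rhAgrin (adjusted p = 0.0498). PSMB1, of the same ring, was at 0.07 and −0.12 and passed in neither. Without animal 577, PSMA5 (0.36), PSMA1 (0.29) and PSMB3 (0.26) lost their calls with rhAgrin, as did PSMA1 without animal 576 (0.31). The PSMB3 call with rhAgrin was also lost in DESeq2 (adjusted p = 0.0797), with DESeq2 size factors, with no filter, with no block and without animal 573 (adjusted p = 0.0502) or most of the other animals, and that with saline without animal 575 (0.28).

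In the 19S cap as a whole, 6 of 17 genes rose and 2 fell with saline, and 5 rose and 5 fell with rhAgrin. The shares over all genes were 34.6% higher and 32.2% lower with saline, and 37.6% and 33.1% with rhAgrin. Of the 11 non-ATPase subunits, 5 rose and 1 fell with saline and 4 rose and 1 fell with rhAgrin, with medians of 0.28 and 0.04. PSMD2, a large scaffold subunit at the base of the cap, had 132.6, 131.6 and 127.7 in the saline remote zone and 196.9, 211.6 and 227.3 in the infarct zone, and rose (log2 0.70 ± 0.11, adjusted p = 6.14e-05). The rhAgrin animals had 164.9, 145.3, 145.7 and 135.5 against 203.6, 176.6, 204.2 and 234.2, again without overlap (0.47 ± 0.09, adjusted p = 0.000493). PSMD14, the subunit that cuts ubiquitin chains off the substrate, rose by 0.64 ± 0.16 (adjusted p = 0.00228) and 0.46 ± 0.14 (adjusted p = 0.00677). PSMD13, another subunit of the lid of the cap, fell by 0.29 with saline (adjusted p = 0.034) and by 0.41 with rhAgrin (adjusted p = 0.0017). PSMD13 turned to 0.36 (adjusted p = 0.0113) and 0.29 (adjusted p = 0.0155) with library size alone, and its saline call was lost without animal 571 (−0.22) or 573 (−0.27).

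Of the 6 ATPases, 1 rose and 1 fell with saline and 1 rose and 4 fell with rhAgrin, with medians of −0.12 and −0.30. All genes together had 34.6% higher and 32.2% lower with saline, and 37.6% and 33.1% with rhAgrin. PSMC5 had 123.3, 173.8 and 118.5 in the saline remote zone and 92.36, 120.6 and 108.0 in the infarct zone, which overlap through animal 573 (log2 −0.36 ± 0.14, adjusted p = 0.0331, a call lost without that animal, at −0.28, and without 571, at −0.34). With rhAgrin it had 154.1, 153.1, 139.9 and 139.7 against 103.4, 91.94, 98.73 and 100.5, with no overlap (−0.57 ± 0.12, adjusted p = 0.00066). PSMC2 fell with rhAgrin (−0.30 ± 0.11, adjusted p = 0.025) and was at −0.12 with saline (adjusted p = 0.419). PSMC4 was the ATPase that rose, by 0.33 with saline (adjusted p = 0.0162) and 0.23 with rhAgrin (adjusted p = 0.0442). The PSMC4 call with saline was lost without animal 575 (0.18), and that with rhAgrin in DESeq2 (adjusted p = 0.0759) and without 573 (adjusted p = 0.0516), 577 (0.18) or most other animals, and PSMC2 lost its call without 570 or 572 (−0.23 each). With library size alone PSMC5 turned to 0.29 with saline and 0.13 with rhAgrin, neither past the threshold, and PSMC2 turned to 0.40 with rhAgrin (adjusted p = 0.00391), so the direction of both rests on the scaling.

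The activators outside the immunoproteasome, the inhibitor and the core chaperone PSMG3 held the 3 largest decreases of the family. PSMF1, which binds the core and can inhibit it, had 85.79, 82.4 and 80.52 in the saline remote zone and 38.41, 45.25 and 43.41 in the infarct zone, and fell 1.96-fold (log2 −0.97 ± 0.10, adjusted p = 1.88e-06). With rhAgrin it had 101.6, 90.88, 90.31 and 80.61 against 44.72, 43.43, 44.22 and 47.08, and fell 2.02-fold (−1.01 ± 0.09, adjusted p = 2.24e-07). Every infarct library was well below every remote library. PSME4, a single-chain activator that caps the core, had 105.8, 126.1 and 75.93 against 44.99, 57.67 and 46.02 with saline, and fell 2.04-fold (−1.03 ± 0.16, adjusted p = 6.5e-05). With rhAgrin it had 131.1, 109.6, 74.79 and 59.18 against 49.5, 53.43, 49.7 and 46.2 (−0.85 ± 0.14, adjusted p = 8.91e-05), so the infarct values were narrow and the remote values wide. The rhAgrin difference of PSME4 was −0.14 with library size alone (adjusted p = 0.354).

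PSME3 moved the opposite way to PSME4 and PSMF1. It had 53.06, 52.83 and 43.05 against 75.27, 76.39 and 83.41 with saline, and rose (log2 0.66 ± 0.10, adjusted p = 4.4e-05), and with rhAgrin it rose by 0.66 ± 0.09 (adjusted p = 1.01e-05). The cap chaperone PSMD5 had 18.91, 15.95 and 20.97 against 29.97, 24.8 and 35.22 with saline, and rose by 0.68 ± 0.09 (adjusted p = 1.69e-05), and by 0.67 ± 0.08 with rhAgrin (adjusted p = 3.93e-06). PSMD10, also known as gankyrin, had 9.853, 5.602 and 7.673 against 12.75, 12.42 and 16.09 with saline, and rose by 0.85 ± 0.17 (adjusted p = 0.00049), and by 0.78 ± 0.14 with rhAgrin (adjusted p = 0.000255). Both cap chaperones were thus higher in the infarct than in the remote library of every animal number, where animal 573 is paired by its label alone. The core chaperone PSMG3 had 8.267, 8.948 and 7.049 against 4.219, 5.602 and 5.95 with saline, and fell by 0.63 ± 0.17 on the log2 scale (adjusted p = 0.00483), and by 0.83 ± 0.15 with rhAgrin (adjusted p = 0.000156). Its partner PSMG4 was at −0.12 and −0.06 and passed in neither. With library size alone PSMG3 was at 0.027 with saline and at −0.12 with rhAgrin (adjusted p = 0.462), so neither passed, and without animal 571 its saline call was lost (−0.47, adjusted p = 0.0672).

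**Figure D5:**
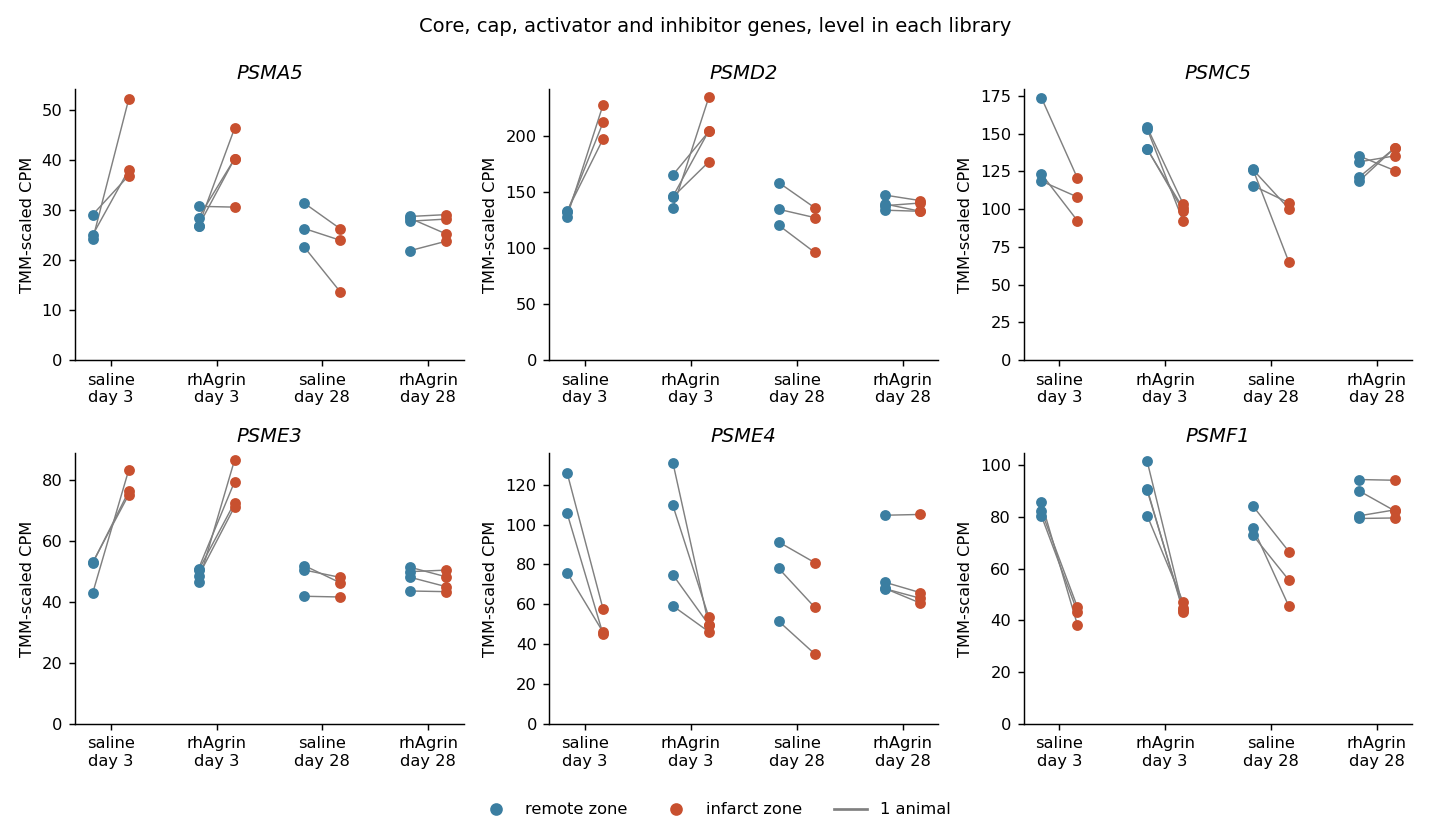
Level (TMM-scaled CPM) of PSMA5, PSMD2, PSMC5, PSME3, PSME4 and PSMF1 in each library, remote (blue) and infarct (orange) zone joined by animal. At day 3 PSMD2 and PSME3 rise and PSMF1 and PSME4 fall in all 7 pairs, with animal 573 paired by its label alone. At day 28 the rhAgrin pairs lie close together, with animal 519 highest for PSME4 in both zones (104.7 and 105.1).

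Genes that work with the proteasome did not follow it as a block at day 3. For the counts of this paragraph, the shares over all genes were 34.6% higher and 32.2% lower with saline, and 37.6% and 33.1% with rhAgrin. Of 9 other proteasome parts and partners, 0 rose and 1 fell with saline and 0 rose and 5 fell with rhAgrin. ECPAS, a proteasome adaptor and scaffold, fell with saline (log2 −0.49 ± 0.09, adjusted p = 0.000364), and UCHL5, PITHD1 and UBE3C were at −0.26, −0.28 and −0.17. Of 12 ubiquitin and shuttle genes, 1 rose and 4 fell with saline and 2 rose and 4 fell with rhAgrin. UBA1, the main ubiquitin-activating enzyme, rose by 0.54 ± 0.09 with saline (adjusted p = 8e-05), whereas the polyubiquitin gene UBB was at −0.62 ± 0.13 and the shuttle factor UBQLN2 at −0.57 ± 0.13, and both fell. NFE2L1, the transcription factor known to raise proteasome genes when proteasome activity drops, fell by 0.89 ± 0.13 with saline (adjusted p = 3.46e-05) and by 0.92 with rhAgrin (adjusted p = 5.62e-06), while its relative NFE2L2 rose by 0.29 ± 0.11 (adjusted p = 0.0342) and the NFE2L1-processing enzyme NGLY1 was at 0.00. With library size alone ECPAS (0.17), UBB (0.033) and UBQLN2 (0.088) turned to values above 0 with saline and did not pass, and NFE2L1 was at −0.24 (saline) and −0.21 (rhAgrin), neither past the threshold. NFE2L2 lost its call without animal 571 (0.10) or 575 (0.31). Of 7 muscle ubiquitin ligases and related genes, 1 rose and 6 fell in both treatments, among them FBXO40 (−3.28 ± 0.32), FBXO32 (−2.19 ± 0.23), FBXO30 (−1.52 ± 0.13) and MUL1 (−1.21 ± 0.12) with saline.

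Of the antigen processing genes with a row, more rose than fell at day 3, and the interferon genes went both ways. Of 15 antigen processing and class I genes listed, 7 had a row and were tested. Of these 4 rose and 1 fell with saline, with a median of 0.41, and 6 rose and 0 fell with rhAgrin. Over all genes tested, 34.6% were higher and 32.2% lower with saline, and 37.6% and 33.1% with rhAgrin. The peptide-loading chaperones PDIA3 (log2 1.65 ± 0.15) and CALR (1.64 ± 0.18) and the peptide transporter TAP2 (0.45 ± 0.14) rose with saline, and NLRC5, an activator of class I genes, fell (−0.67 ± 0.20, adjusted p = 0.0091). The NLRC5 call was lost with library size alone (−0.011) and without animal 575 (−0.39), and that of TAP2 without animal 571 (0.33). Of 22 interferon response genes tested, 5 rose and 9 fell with saline and 7 rose and 6 fell with rhAgrin, with medians of −0.18 and −0.03. WARS1, a tRNA synthetase induced by interferon gamma, rose by 1.12 ± 0.11 and the signal transducer STAT2 by 0.91 ± 0.15 with saline, while the antiviral gene OAS1 was at −1.36 ± 0.22 and the guanylate-binding protein gene GBP1 at −1.47 ± 0.26, both past the threshold. The summed level of this list was 528.3 to 690.1 CPM in the remote and 516.6 to 628.2 in the infarct zone of the day 3 saline animals, which overlap. The marker lists moved further: with saline at day 3, 0 of 9 cardiomyocyte markers rose and 9 fell (median −3.84), and of 12 macrophage markers 8 rose and 0 fell (median 2.73). In the same comparison 7 of 11 rows of T and NK cell markers, 5 of 5 B and plasma cell markers, 4 of 4 neutrophil markers, 8 of 10 fibroblast markers and 6 of 6 cell cycle genes rose, and 0 of 8 endothelial markers rose while 2 fell. Their part in the changes of the proteasome genes was not tested.

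At day 28 none of the 40 genes rose in the infarct zone of either treatment. In the rhAgrin animals 0 of the 40 genes passed, where 0% of all genes passed. The log2 fold changes lay between −0.14 and 0.10, those of the 5 immunoproteasome genes between 0.02 and 0.08, and 0 members had an unadjusted p under 0.05 in edgeR, with 0 calls in DESeq2. PSMF1 had 79.45, 90.2, 94.53 and 80.46 in the remote zone and 79.66, 82.4, 94.25 and 82.79 in the infarct zone. PSMB8 had 15.93, 26.57, 22.45 and 18.01 in the remote and 17.67, 23.43, 22.72 and 19.3 in the infarct zone. Both genes varied more between animals than between the zones of 1 animal. In the same animals the cardiomyocyte marker sum was 65740 to 77400 CPM in the infarct and 73850 to 78290 in the remote zone.

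In the saline animals at day 28, 0 members rose and 16 fell, where 25.0% of all genes passed, 12.7% higher and 12.3% lower. The median of the members was −0.38 and that of all genes −0.00. Of the 40 members 38 were below 0, where 7725 of 15409 genes were. The infarct range lay wholly below the remote range for 14 members and above it for 1 (9.45% and 10.8% of genes). The fold and count thresholds of the study were reached by 0 members, where 8.12% of all genes reached them. The calls rested on animal 523: without it 0 members passed and the median was −0.19. The fit restricted to the 6 libraries of this group also gave 0, and library size alone gave 2 higher and 0 lower. The infarct zone of animal 523 had the lowest mitochondrial share of the group, 6.83%, in a range of 6.83% to 28.35%. The group's cardiomyocyte marker sum ranged from 10190 to 55810 CPM in the infarct and 46290 to 74610 in the remote zone.

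The decreases were spread over core and cap. Of all genes 12.3% fell. Of the standard core 6 of 11 fell (median −0.40), of the cap 7 of 17 (median −0.36), and of the immunoproteasome 1 of 5 (median −0.33), which was PSME1. PSME1 had 15.08, 13.75 and 17.24 in the remote zone of animals 523, 536 and 547 and 8.42, 10.62 and 14.03 in their infarct zone (log2 −0.50 ± 0.12, adjusted p = 0.00851). PSMB7 had 45.18, 58.76 and 51.95 against 25.19, 46.15 and 44.82 (−0.47 ± 0.12, adjusted p = 0.0163). In both genes animal 523 had the lowest infarct value. PSMF1 was the member with the lowest adjusted p, with 75.86, 84.23 and 72.93 against 45.4, 66.62 and 55.56 (−0.49 ± 0.10, adjusted p = 0.00504). PSMC2 (−0.53 ± 0.13, adjusted p = 0.0101), PSMC5 (−0.48 ± 0.14, adjusted p = 0.0231), PSMB1 (−0.48 ± 0.15, adjusted p = 0.0288) and PSMG4 (−0.50 ± 0.15, adjusted p = 0.0297) fell by similar amounts. All of these calls were lost without animal 523.

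PSMB8, PSMB9 and PSMB10 did not pass at day 28 with saline. PSMB8 had 41.56, 15.68 and 32.27 in the remote zone and 19.89, 13.11 and 32.53 in the infarct zone (log2 −0.44 ± 0.17, adjusted p = 0.0778). PSMB9 followed with 13.91, 4.699 and 12.55 against 6.596, 5.324 and 12.14, and PSMB10 with 26.22, 14.93 and 27.62 against 19.75, 15.67 and 27.95. Animals 523 and 547 were high in the remote zone for all of them and animal 536 was low in both zones. In animal 523 PSMB8 and PSMB9 were far lower in the infarct than in the remote zone, whereas the zones of the other two animals were closer. The remote PSMB8 level did not pass between day 28 and day 3 in the saline animals (0.87 ± 0.29, adjusted p = 0.387). The summed interferon list ranged from 457.0 to 1137 CPM in the same 3 remote libraries, and its part was not tested.

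The difference between the day 28 and the day 3 response was tested directly. With saline the response (infarct over remote) was lower at day 28 for 26 members and higher for 2, where 42.9% of all genes passed, 22.3% lower and 20.6% higher. PSMB8 dropped by 1.57 on the log2 scale (SE 0.25, adjusted p = 0.000268), PSMB9 by 1.31 (SE 0.31, adjusted p = 0.00407), PSMB10 by 0.87 (SE 0.25, adjusted p = 0.0118) and PSME2 by 0.80 (SE 0.21, adjusted p = 0.00752). The PSMB10 call was lost without animal 523 (−0.68, adjusted p = 0.0556), without 575 (−0.69, adjusted p = 0.06) and with no block (adjusted p = 0.055). The members whose response was higher at day 28 were PSME4 and PSMF1, which had fallen at day 3. Both calls were lost with library size alone (0.33 and 0.16), without animal 536 (0.55 and 0.41), without 547 (0.67 and 0.43) and without 571 (0.57 and 0.41), and that of PSME4 also without 573 (0.60, adjusted p = 0.0823) and with no block. The count was 17 without animal 523 and 16 without animal 575. With rhAgrin the response was lower for 9 members and higher for 7, where 56.3% of all genes passed, 29.8% lower and 26.5% higher. PSMB8 dropped by 1.11 (adjusted p = 0.0005), PSMB9 by 0.99 (adjusted p = 0.00573) and PSMB10 by 0.70 (adjusted p = 0.0122), while PSMF1 was higher by 0.99 ± 0.13 (adjusted p = 1.87e-05), PSMG3 by 0.88 ± 0.20 (adjusted p = 0.00211), PSME4 by 0.75 ± 0.20 (adjusted p = 0.00485), PSMC5 by 0.67 ± 0.17 (adjusted p = 0.0038) and PSME1 by 0.48 ± 0.14 (adjusted p = 0.0107). The PSME1 difference turned to −0.15 with library size alone, and PSMG3 (0.25), PSME4 (0.12) and PSMC5 (0.038) lost their calls. With no block PSMB9 (adjusted p = 0.0568), PSMB10 (adjusted p = 0.0664) and PSME4 (adjusted p = 0.0624) lost theirs. These values share the day 3 and day 28 libraries with the comparisons above.

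Compared within the infarct zone alone, 1 member was higher and 16 lower at day 28 than at day 3 with saline (47.3% of 14968 genes passed, 25.6% higher and 21.7% lower), and 4 were higher and 8 lower with rhAgrin (61.9%, 32.4% higher and 29.5% lower). PSME3 was lower in both (log2 −0.72 ± 0.12, adjusted p = 0.000425, and −0.63 ± 0.10, adjusted p = 0.000148), as was PSMB10 (−0.73 ± 0.25, adjusted p = 0.0317, and −0.72 ± 0.22, adjusted p = 0.0122). PSMF1 was higher in both (0.48 ± 0.14, adjusted p = 0.0138, and 1.01 ± 0.12, adjusted p = 1.64e-05). The saline call of PSMF1 was lost with library size alone (0.10) and without animal 536 (0.32) or 571 (0.36), and that of PSMB10 without 536 (−0.56) or 575 (−0.60). PSMB8 was lower with rhAgrin (−0.80 ± 0.25, adjusted p = 0.0141) and at −0.66 ± 0.29 with saline (adjusted p = 0.0756). The saline count was 8 without animal 575, and the rhAgrin count was 21 without animal 523, a saline animal that enters that comparison only through the shared spread and scaling. In the remote zone 0 members passed between the days, where 0% of all genes passed in either treatment, with an unadjusted p under 0.05 for 1 member with saline and 9 with rhAgrin (10.2% and 9.03% of all genes), and 0 calls in DESeq2.

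Whether rhAgrin changed the response was tested as the difference of the infarct over remote changes of both treatments. At day 3, 0 members passed and 0% of all genes did. An unadjusted p under 0.05 was reached by 0 members in edgeR, and DESeq2 called 0. The difference, rhAgrin minus saline, was −0.01 ± 0.23 for PSMB8, 0.07 ± 0.29 for PSMB9 and −0.01 ± 0.23 for PSMB10 on the log2 scale. It lay between −0.30 and 0.18 over the 40 genes, 37 of which were below 0 (median −0.16). Over all genes 6829 of 15409 were below 0, with a median of 0.04. The members varied together, so their signs are not separate observations. Without animal 575 the median of the members was −0.02. At day 28, 0 members passed in edgeR, where 0.668% of all genes passed, 0.0519% higher and 0.617% lower. Of the members, 20 had an unadjusted p under 0.05 (21.6% of all genes), and DESeq2 called 5 (6.93% of all genes), which were PSMC3, PSMC5, PSMD13, PSME1 and PSMF1, all higher with rhAgrin. The lowest adjusted p in edgeR was that of PSME1 (0.58 ± 0.16, adjusted p = 0.0739). The median over the members was 0.39, beside −0.01 over all genes, and that of the members was 0.20 without animal 523. PSMB8 was at 0.46 ± 0.23 (adjusted p = 0.259).

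In the infarct zone at day 28, 4 members were higher with rhAgrin than with saline, and 0 were lower, where 1.30% of all genes were higher, 6.02% lower and 7.32% passed either way. PSMF1, with 79.66, 82.4, 94.25 and 82.79 against 45.4, 66.62 and 55.56, differed by 0.61 ± 0.13 (adjusted p = 0.0216). PSMC5, with 140.4, 125.5, 135.2 and 140.5 against 64.77, 100.2 and 104.1, differed by 0.60 ± 0.16 (adjusted p = 0.0403). The rhAgrin and saline libraries did not overlap in either gene, and animal 523 gave the lowest saline value. The other genes were PSMG4 (0.62 ± 0.16, adjusted p = 0.0341) and PSMC3, another ATPase (0.55 ± 0.15, adjusted p = 0.0465). All of these calls were lost without animal 523, without 519 and without 544, and with library size alone, and those of PSMC5, PSMG4 and PSMC3 also without 522, 548 or 575, and of PSMC5 and PSMC3 without 577. PSMB8 was at −0.05 ± 0.27 (adjusted p = 0.909). At day 3 the infarct zone gave 0 members (0% of all genes, 0 with an unadjusted p under 0.05, 0 in DESeq2). The remote zones of both treatments gave 0 members at either day (0% of all genes), with an unadjusted p under 0.05 for 2 members at day 3 and 1 at day 28 (3.87% and 4.58% of all genes), and 0 calls in DESeq2.

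Over the 28 libraries the subunits of the standard core varied together. The median Pearson correlation of log2 levels was 0.851 over the 55 pairs of core genes, 0.803 over the 187 pairs of a core and a cap gene, and 0.726 over the 136 pairs of cap genes. PSMB8, PSMB9 and PSMB10 had a median of 0.862 among themselves and 0.39 with the core. With PSME4 and PSMF1 their median was −0.688, while PSME4 and PSMF1 correlated with each other at 0.731. PSME1 and PSME2, whose products form 1 ring, correlated at 0.091. Within the 14 infarct libraries the core and the immunoproteasome catalytic genes had a median of 0.638, and within the 14 remote libraries it was −0.0976. These correlations describe points that share zone, animal, library depth and scaling, and carry no test.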

How the data were processed

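The authors trimmed the reads with cutadapt and aligned them with STAR 2.7.3a to the pig genome (Sscrofa11, Ensembl release 103 annotation). They removed duplicate reads that shared a molecular barcode (UMI) with Picard 2.22.4 and counted uniquely mapped reads per gene with HTSeq. The deposited tables hold these raw counts of reads per gene, without normalization, for 17603 genes and 28 libraries. 13009 genes carried a symbol, and 661 more were named through a reference table, among them PSMA2 and PSMD9, which stayed outside the 40 members.

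Counts were fitted with edgeR 4.0.16 (R 4.3.3; TMM scaling, filterByExpr, robust quasi-likelihood) over all 28 libraries each animal entering as a blocking factor and the infarct effect estimated separately in the 4 groups of treatment and day, or per zone over 14 libraries without a block. Adjusted p-values are Benjamini-Hochberg over 15409 genes, or 14968 (infarct) and 14324 (remote), with a threshold of 0.05. Zones were paired by the animal number in the labels. After removing group means, each of the 14 infarct libraries correlated best with the remote library of its animal number (r 0.115 to 0.639). Only remote libraries of the same treatment and day were compared. The pairs of so small a group are not independent after that step, so it cannot decide whether the 2 zones of animal 573 share an origin. Levels are TMM-scaled CPM. DESeq2 1.42.0, other scalings, no filter, no block and leaving out each animal were alternatives, 20 fits in all. Only the fitting step was tried on simulated counts. The trial covered the 4 infarct against remote comparisons and rhAgrin against saline within each zone at day 3. A first criterion on all changed genes was not met, and recovery was then required only of the larger changes.

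Genes given library by library were the immunoproteasome genes, PSMB7, and in each other role the 2 members with the largest absolute change among those that passed between zones, with the members that passed in the other comparisons (at most 6 each) and, of each pathway list, the 4 genes with the lowest p at day 3 with saline, of which 1 is not reported here. PSMD13, PSMC4 and PSMC3 were named as the ends of a role or as calls of a comparison. The lists are other proteasome parts, ubiquitin and shuttle genes, NFE2L1 regulation, antigen processing, interferon response, muscle ubiquitin ligases, and markers of cell types and the cell cycle. The members and lists were chosen with earlier results of these data known. The animals of a group are separate, but sections within a zone were not replicated. Promoters were cut from the RefSeq genome (Sscrofa11.1), with coordinates from its own annotation.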

Additional observations from a re-analysis of the deposited data

Results flagged for a closer look

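Among the rhAgrin groups of 4 libraries, 80 sets of values of the 20 genes followed library by library were screened for a library far from the other 3 (past Dixon's critical value), and 7 were found, where chance gives about 1 in 20. That rate holds for independent sets, whereas these sets share libraries. PSMB7 was highest in 1 day 28 infarct library (56.32 CPM). PSMA5 (21.9) and PSMB1 (66.91) were lowest in the same day 28 remote library, that of animal 548. PSMB1 (68.58) was lowest in 1 day 3 infarct library, and PSMG4 (21.99) in 1 day 3 remote library. PSME4 was highest in both day 28 zones of animal 519, at 105.1 in the infarct and 104.7 in the remote zone, so this animal stood apart in 2 libraries.

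The change from the day 3 to the day 28 response passed its own test for 25 of the followed results. Of all genes, 42.9% passed that test with saline and 56.3% with rhAgrin. Followed genes other than PSMB7 and the immunoproteasome were chosen for a large change between zones in these same libraries. That choice favours a difference between the days, so the count is not a result about the family. With saline the log2 difference was −1.57 for PSMB8, −1.31 for PSMB9, −0.87 for PSMB10, −0.80 for PSME2, −1.06 for PSMA5, −0.92 for PSMA1, −0.55 for PSMB1, −0.86 for PSMB3, −0.90 for PSMD2, −0.97 for PSMD14 and −0.64 for PSMD5, and it was 0.65 for PSME4 and 0.48 for PSMF1. With rhAgrin it was −1.11 for PSMB8, −0.99 for PSMB9, −0.70 for PSMB10, −0.49 for PSMD2, −0.54 for PSMD14, −0.80 for PSMD10 and −0.64 for PSMD5, and it was 0.48 for PSME1, 0.67 for PSMC5, 0.75 for PSME4, 0.99 for PSMF1 and 0.88 for PSMG3. PSMB8, PSMB9, PSMB10, PSMD2, PSMD14 and PSMD5 were lower, and PSME4 and PSMF1 higher, in both treatments. Without animal 573 the saline calls of PSMB1 (−0.59, edgeR adjusted p = 0.0638) and PSME4 (0.60, adjusted p = 0.0823) were lost, and without animal 577 the rhAgrin call of PSMD14 (−0.47, adjusted p = 0.0738). The PSMB1 call was also lost with no filter, with no block and without animal 523 (−0.29), 575 (−0.39) or most other animals. That of PSMD14 was also lost with no block and without animal 544 (−0.52), 548 (−0.49) or 576 (−0.43).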

How the results depend on the processing

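Of 118 calls on named genes, DESeq2 kept 116, DESeq2 size factors within edgeR 116, omitting the filter 112 and library size alone 81. The next 2 settings covered only some of the comparisons. Fits with no block kept 71 calls and lost 21, and fits of 1 treatment and day alone kept 50 and lost 17. The counts of members passing changed with the scaling and with single animals. With library size alone they were 38 (saline) and 37 (rhAgrin) at day 3, 2 at day 28 with saline, 31 for the day 28 against day 3 response with rhAgrin, 0 for rhAgrin against saline in the day 28 infarct zone, and 36 (saline) and 33 (rhAgrin) for day 28 against day 3 in the infarct zone. The same setting reversed PSMC5 (0.29), PSMG3 (0.027), PSMD13 (0.362), ECPAS (0.166), UBB (0.033) and UBQLN2 (0.088) with saline at day 3, PSME1 (0.30), PSMC5 (0.13), PSMC2 (0.40) and PSMD13 (0.29) with rhAgrin at day 3, PSME1 in the rhAgrin day 28 against day 3 response (−0.15), and PSMC5 in the rhAgrin infarct zone between days (−0.05). In that setting the median of all genes shifted with the zone, by 0.69 and 0.76 at day 3. DESeq2 gave 5 members for the rhAgrin against saline response at day 28, 7 for the same contrast within the infarct zone, and 27 for day 28 against day 3 in the saline infarct zone. Fits of 1 treatment and day alone gave 15 with saline at day 3 and 0 with saline at day 28. Without the replicate block, saline at day 28 gave 4 members, and the counts at day 3 were 21 (saline) and 18 (rhAgrin), those of the day 28 against day 3 responses 22 and 11.

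Leaving out 1 animal at a time gave 15 to 26 members with saline at day 3, 17 to 25 with rhAgrin, 0 to 19 with saline at day 28, 16 to 30 and 13 to 18 for the day 28 against day 3 responses with saline and rhAgrin, 0 to 4 for rhAgrin against saline in the day 28 infarct zone, and 8 to 22 and 10 to 21 for day 28 against day 3 in the infarct zone. The causes of these shifts were not tested. With 3 or 4 animals a group and 1 library per zone, small changes of low genes could not be detected, and a count that misses the threshold does not show equal levels.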

Other observations

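PSMA2, an alpha ring subunit, and PSMD9, a chaperone of cap assembly, had no symbol in the count tables and were named through the reference table, so they stand outside the 40 genes. PSMA2 was at 0.14 with saline and 0.01 with rhAgrin on the log2 scale between the day 3 zones, and fell by 0.37 in the day 28 saline animals (edgeR adjusted p = 0.045, a call lost without animal 523, at −0.15, and in most other leave-outs). PSMD9 rose at day 3, by 0.48 with saline and 0.38 with rhAgrin, as did the cap chaperones PSMD5 and PSMD10.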
